A study of Bos taurus with 18 samples.

Results

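Milk cells from cows with mastitis were compared with milk cells from healthy cows across all probe sets of a bovine expression array. The comparison used 12 of the 18 arrays of the series, 6 of mastitis and 6 of healthy animals, with 1 milk sample per array. The other 6 arrays, of cows with endometritis, entered the fit only to estimate the spread. After 112 control probe sets were set aside, 24016 probe sets were tested, and those with 1 gene symbol represented 9155 genes.

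The healthy cows were described as 2 to 4 years old and mostly in lactation 1 to 3, with 1 animal in lactation 4 and another in lactation 8. That age and lactation 8 do not go together, and the labels do not resolve this. The healthy cows had no clinical signs, no change of udder or milk, and fewer than 100000 somatic cells per ml of milk. Most were sampled 10 to 100 days after calving. The cows with mastitis were in lactation 1 to 8, between 10 and 220 days after calving. The pathogen, the severity of disease, the age and the somatic cell count of the cows with mastitis are not stated in the labels. Age, parity and stage of lactation can therefore differ between the groups along with disease, and their part was not tested. The labels do not state in words that each array is a separate cow, so the spread is one between samples. The p-values for genes set the difference between these 6 and 6 samples against the spread within groups over all 18 arrays, endometritis included.

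Milk somatic cells are a mixture of shed or exfoliated mammary epithelial cells and of leukocytes that cross the epithelium, mainly macrophages and lymphocytes in healthy milk and neutrophils in an infected gland. Neutrophils carry few mitochondria, live largely on glycolysis and make little protein compared with a secretory epithelial cell, which is built for synthesis and export. In a bulk sample, fewer cells of a type and less RNA per cell cannot be told apart.

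Values are log2 intensities as the authors deposited them, with a background near 2.55, and a difference of 1 on this scale is read as 2-fold. A gene was called at an adjusted p under 0.05 (limma, Benjamini-Hochberg over all probe sets tested). Of the 9155 genes, 1035 were called higher in mastitis (11.3%) and 1448 were called lower (15.8%), and the median difference of all genes was -0.01. The 6 mastitis arrays did not overlap the 6 healthy arrays for 1522 genes (16.6%). These 3 shares are the background against which the counts for each pathway are read. The calls included 345 genes at least 4-fold higher and 235 genes at least 4-fold lower.

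Marker genes of several cell types differed between the groups. Of 11 measured neutrophil markers, 8 rose, and their mean level ran from 4.64 to 6.46 on the healthy arrays and from 7.86 to 9.44 on the mastitis arrays. Of 15 markers of secretory mammary epithelium, 13 fell, from 9.26 to 11.2 on the healthy arrays to 4.89 to 7.58 on the mastitis arrays. None of 12 macrophage markers, 15 T cell markers, 12 endothelial and fibroblast markers or 8 erythroid and platelet markers was called by limma; at an unadjusted p under 0.05 there were 1, 1, 0 and 0. The macrophage level ranged from 4.11 to 7.54 on healthy arrays and from 4.97 to 7.98 on mastitis arrays, so the groups overlapped widely. KIT, a receptor of mast cells and of luminal progenitor cells of the gland, was the 1 called gene of 5 eosinophil and mast cell markers, and it fell by 3.43. This rested on 1 of its 4 probe sets: their mean differed by -1.56 and was not called, and the call was also lost with array weights and with the 3′ to 5′ GAPDH difference as a covariate. The part that the neutrophil and epithelial levels take in each result that follows was not tested.

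Some RNA control measures moved with the groups and others did not. The 3′ minus 5′ difference of the GAPDH control probe sets, which grows with RNA degradation, was 0.88 ± 0.40 in healthy and 0.39 ± 0.23 in mastitis samples (SD, n = 6 each; exact permutation test, two-sided, p = 0.0195, adjusted over 4 control measures 0.039). The dap control, a transcript spiked in before labelling, was 7.41 ± 0.83 and 6.03 ± 0.45 (exact permutation p = 0.00216, adjusted 0.00864). The 3′ minus 5′ difference of actin did not differ, at 0.005 ± 0.049 in healthy and 0.005 ± 0.007 in mastitis samples. The hybridisation controls were 8.968 ± 0.435 and 8.721 ± 0.269 (exact permutation p = 0.281, adjusted 0.375). With the GAPDH difference as a covariate 376 genes were called higher and 429 lower, and of the 187 called genes named in the text 78 lost the call. With each array scaled to its hybridisation controls, 891 were higher and 619 lower. That scaling moved the median of all genes to 0.24, and the share of calls that were higher from 41.7% to 59%. The number in the sample titles, whose meaning is not given in the sources used here, splits the arrays at 120 into 3 healthy and 4 mastitis arrays below and 3 and 2 above. Within the lower numbers 36 genes were called higher and 28 lower, and within the higher numbers 460 and 691. These fits also held the endometritis arrays, endometritis 1 below the split and endometritis 2 to 6 above. The spread thus rests on unlike numbers of arrays, and the counts of the lower and higher numbers cannot be compared directly.

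**Figure D1:**
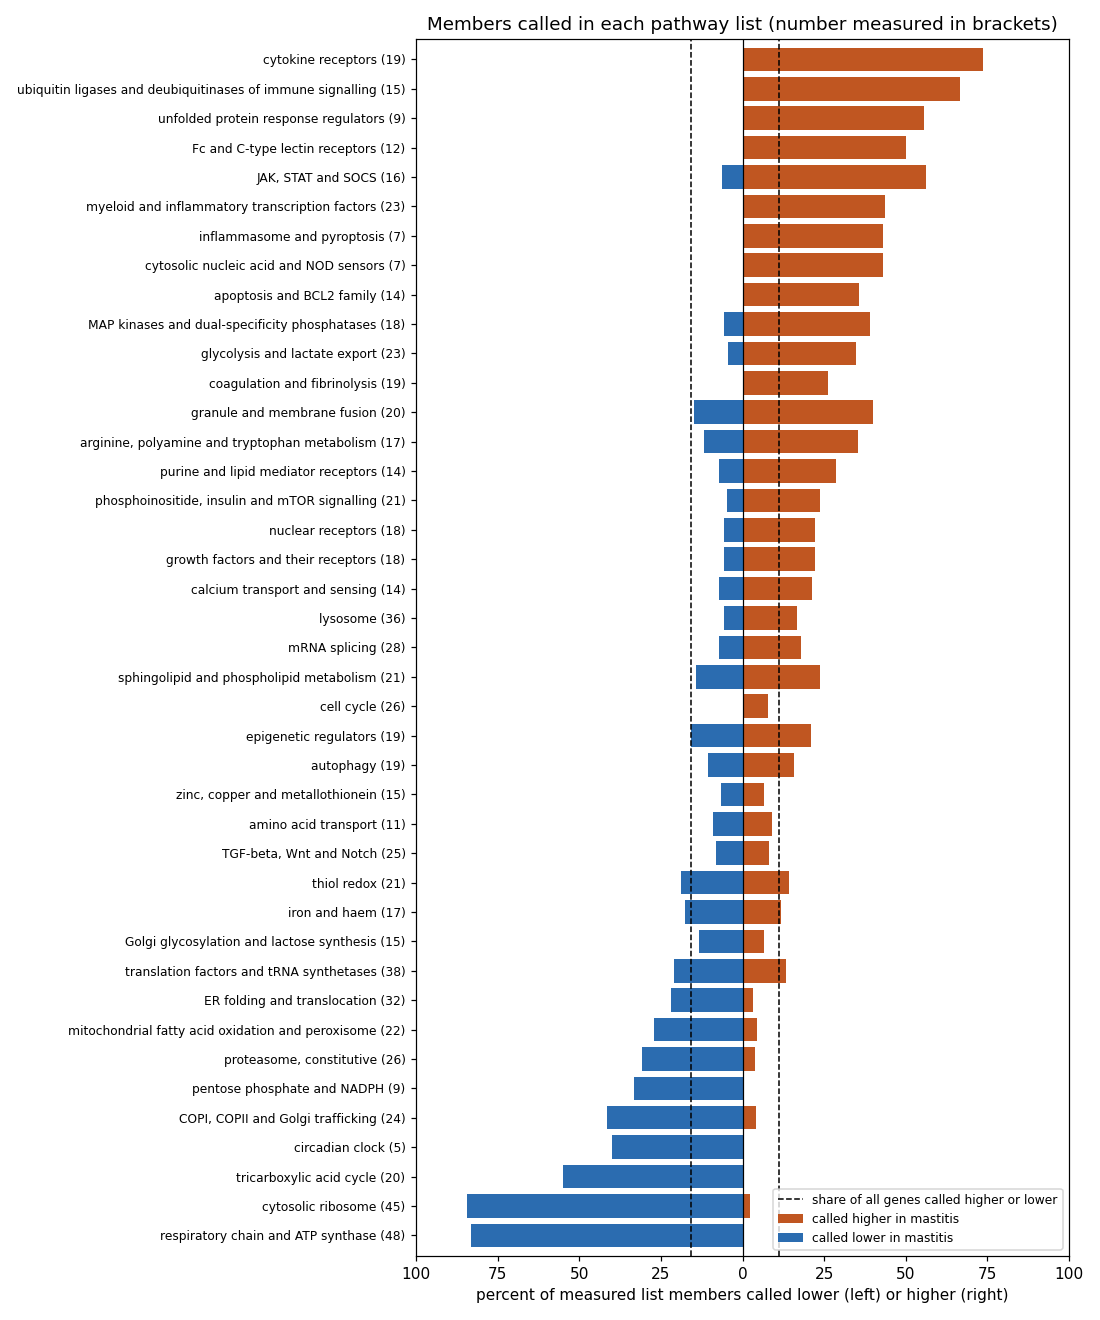
Percent of the measured members of 41 pathway lists that were called lower (left, blue) or higher (right, orange) in mastitis, with the number measured in brackets. The dashed lines mark the shares over all genes, 15.8% lower and 11.3% higher. Cytokine receptors reach furthest to the right, and the ribosome and respiratory chain lists furthest to the left.

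The genes that separated the groups most sharply, relative to their spread, included basal transcription, immune receptor, ribosome and mitochondrial genes. By the rule of the 12 largest moderated t statistics in each direction, outside the neutrophil, secretory and milk fat lists, the leading gene was GTF2B, which encodes the general transcription factor that places RNA polymerase II on promoters. Its level ran from 6.31 to 6.86 (median 6.63) in healthy and from 9.05 to 10.51 (median 9.73) in mastitis samples, a rise of 3.20 ± 0.21 (SE; adjusted p = 5.93e-07). The lowest mastitis array thus lay more than 2 log2 units above the highest healthy array. FAM107B was almost constant in healthy samples, from 2.80 to 2.83, and ranged from 3.91 to 4.91 in mastitis samples (rise 1.66 ± 0.11, adjusted p = 5.93e-07).

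The 12 rising genes included several of immune function. IL2RA, the alpha chain of the interleukin-2 receptor, went from 2.77 to 3.31 (median 3.03) in healthy to 4.98 to 6.56 (median 5.71) in mastitis samples, a rise of 2.80 ± 0.23 (adjusted p = 5.77e-06). FCAR, an activating Fc receptor of myeloid cells, went from 3.02 to 3.82 (median 3.11) to 6.61 to 8.72 (median 7.74), a rise of 4.44 ± 0.39 (adjusted p = 8.04e-06). Both genes lay near background on the healthy arrays and the groups did not overlap. Against 11.3% and 15.8% of all genes, the Fc and C-type lectin receptor list had 6 of 12 members higher and 0 lower. They were FCAR, TREM1 (4.07), FCGR3A (3.13), the signalling adaptors FCER1G (2.82) and TYROBP (2.48), and the kinase SYK (0.90), and TREM1 and FCGR3A are in the neutrophil list too. TYROBP lost the call without any 1 of 10 arrays, all but healthy 1 and 6, and SYK without healthy 2 to 5 or mastitis 1, 2 or 6. With the GAPDH covariate 3 members were called, and FCER1G, TYROBP and SYK were not; SYK was not called with hybridisation scaling either, nor TYROBP with array weights. ZNFX1, an RNA helicase with antiviral function, rose by 3.37 ± 0.34. ADAM19, a membrane metalloproteinase, rose by 3.22 ± 0.31. PPP1R3B directs protein phosphatase 1 to glycogen, and it rose by 2.77 ± 0.26 from levels of 2.43 to 2.98. CCDC112, ZNF292, IRF9, IKBKB and the tRNA synthetase SARS1 completed the 12, with rises of 2.93 to 3.64.

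Among the 12 falling genes GNAS, the stimulatory G protein subunit, lay between 10.19 and 10.63 (median 10.51) in healthy and between 8.15 and 9.46 (median 8.70) in mastitis samples, and it fell by 1.66 ± 0.19 (adjusted p = 4.52e-05). KAT7, a histone acetyltransferase, fell by 1.24 ± 0.14 and CKS1B, a partner of cyclin-dependent kinases, by 1.93 ± 0.22. Ribosome-related genes were among them: RPS27L, a relative of a small-subunit protein, fell by 2.71 ± 0.31 and NSA2, a factor of large-subunit assembly, by 1.45 ± 0.17. Mitochondrial genes supplied UQCRB and NDUFC2, subunits of complexes III and I, which fell by 2.05 ± 0.24 and 2.42 ± 0.29, and UQCC5, an assembly factor of complex III, which fell by 1.94 ± 0.24. CIBAR1, PTPN18 and the epithelial genes KRT19 and DNAJC12 completed the 12. On the endometritis arrays, all 12 rising and all 12 falling genes lay outside the range of the mastitis arrays, on the healthy side. They overlapped the healthy range for 12 of the rising and 11 of the falling genes. These genes were chosen on the mastitis difference, so this is a description with no test.

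**Figure D2:**
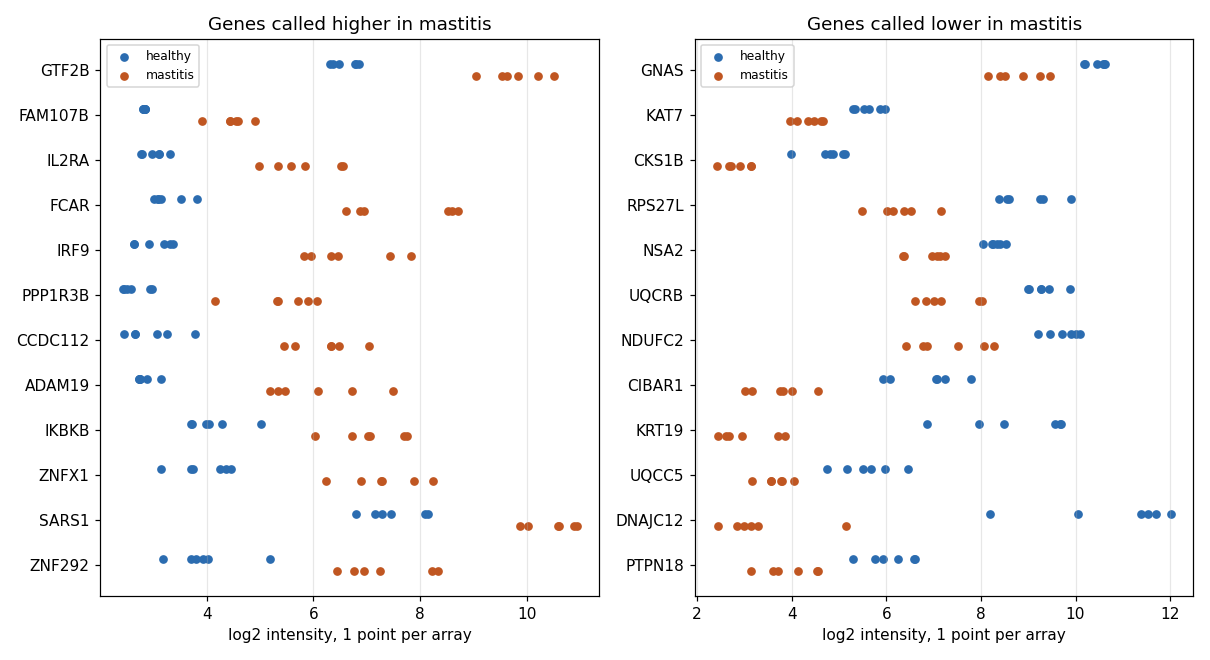
Log2 intensity on each healthy (blue) and mastitis (orange) array for the 12 rising and 12 falling genes with the largest moderated t outside the neutrophil, secretory and milk fat lists. Each point is 1 array, and in every gene shown the 2 groups do not overlap.

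Oxidative phosphorylation fell across its complexes. The respiratory chain passes electrons from complex I through III and IV to oxygen, and ATP synthase uses the resulting gradient. Of 48 measured nuclear-encoded members, 40 fell and 0 rose, or 83.3% against 15.8% of all genes, with a median difference of -1.39. By complex, 20 of 23 members of complex I, 5 of 7 of complex III, 7 of 8 of complex IV and 8 of 10 of ATP synthase fell. NDUFA4 had the largest fall in the list, from 8.40 to 9.99 (median 9.33) in healthy to 5.59 to 7.90 (median 6.90) in mastitis samples, by 2.48 ± 0.41 (adjusted p = 0.000608). ATP5PD, a stalk subunit of ATP synthase, went from 9.12 to 10.09 (median 9.54) to 6.18 to 8.29 (median 7.25) and fell by 2.24 ± 0.29 (adjusted p = 0.000109). In both genes every mastitis array was below every healthy array. The groups did not overlap for 33 of the 48 members, against 16.6% of all genes. With the GAPDH difference as a covariate 30 members were called lower, and with scaling to the hybridisation controls 26. Within the lower and the higher title numbers the medians were -1.22 and -1.81.

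The tricarboxylic acid cycle, which feeds that chain, fell less uniformly. Of 20 measured members 11 fell and 0 rose, against 15.8% and 11.3% of all genes, with a median of -0.88. SUCLG1, a subunit of succinyl-CoA ligase, went from 6.67 to 7.91 (median 7.44) to 4.66 to 6.36 (median 5.58) and fell by 1.80 ± 0.32. PDHA1, the catalytic subunit of pyruvate dehydrogenase, fell by 1.70 ± 0.26 from 6.63 to 7.26 to 4.39 to 6.04. The fall included 3 of 4 subunits each of pyruvate dehydrogenase and succinate dehydrogenase. The count was sensitive to single arrays: it was 7 without healthy 2, 4 or 6, and 6 without mastitis 1, 2 or 4. It was 2 with the GAPDH covariate and 3 with hybridisation scaling. In fatty acid oxidation, 6 of 22 members fell and 1 rose, against 15.8% and 11.3% of all genes. The mitochondrial enzymes ECHS1 and HADH led, with falls of 2.23 ± 0.41 and 2.11 ± 0.43. With hybridisation scaling 2 members of this list were called lower and 1 higher, and its median was 0.032.

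IDH1, the cytosolic isocitrate dehydrogenase that supplies NADPH for fat synthesis in the ruminant udder, fell as well. It went from 9.13 to 11.46 (median 11.09) to 4.27 to 6.61 (median 5.80), by 4.92 ± 0.64 (adjusted p = 0.000121), and the groups did not overlap. It was 1 of 3 genes called lower among 9 of the pentose phosphate and NADPH list, and none rose. The secretory marker level fell on the same arrays, as given above.

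Glycolysis genes more often rose than fell. Of 23 measured 8 rose and 1 fell, 34.8% against 11.3% of all genes, with a median of 1.19, or 1.08 with genes at background in a group set to their bound. The genes that rose were the glucose transporters SLC2A1 (1.97) and SLC2A3 (at background on all 6 healthy arrays, at least 2.1-fold higher), the hexokinase HK3 (1.62), GPI (2.42), ENO1 (1.69), PKM (1.37), LDHA (2.51) and SLC16A3 (3.89). SLC16A3, the transporter that exports lactate from glycolytic cells, went from 3.72 to 6.40 (median 4.20) to 7.86 to 9.63 (median 8.30), a rise of 3.89 ± 0.70 (adjusted p = 0.00109), with no overlap. ALDOC, an aldolase isoform, fell by 1.76 ± 0.35. GAPDH, PGK1 and TPI1 differed by 1.59, 1.62 and 1.51 and were not called, but all 3 were called with dim probe sets left out.

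LDHA rested on 1 of its 3 probe sets: another was called lower, and the mean of the 3 differed by -0.04. It also lost the call without healthy 2, 3, 4 or 5 or mastitis 1, 2, 3 or 4. GPI, ENO1 and HK3 each lost it without healthy 3, 4 or 5, GPI also without mastitis 1 or 4, ENO1 without mastitis 4 and HK3 without mastitis 1, 2 or 5 and with array weights. The number of glycolysis genes called higher was 4 without healthy 3, 4 or 5, 5 without mastitis 1 or 4, and 3 with the GAPDH covariate, where HK3, GPI, ENO1, PKM, LDHA and ALDOC were not called. GAPDH is itself a glycolytic enzyme, but that covariate is a 3′ to 5′ difference within its transcript. Whether the covariate follows the level of the list was not tested.

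Messages for the ribosome fell nearly throughout. Of 45 measured proteins of the cytosolic ribosome 38 fell (84.4%), with a median of -1.16. The large subunit gave 24 of 28 and the small subunit 14 of 17. RPLP0, a protein of the ribosomal stalk, went from 11.88 to 12.39 (median 12.16) to 9.18 to 11.36 (median 10.16) and fell by 1.88 ± 0.35 (adjusted p = 0.00144). RPL4 fell by 1.78 ± 0.37 from 11.59 to 12.40 to 9.01 to 11.41. The healthy values lay within about 1 log2 unit of each other, whereas the mastitis values spread over more than 2. RPL37 was called higher at 2.45 to 2.98, near background, and it lost the call without any of healthy 2 to 6 or mastitis 1, 4 or 6. With the GAPDH covariate 4 members were called lower, RPL4 not among them, at a median of -0.98, and with hybridisation scaling 10 at -0.92. Within the lower and the higher title numbers the medians were -0.95 and -1.77.

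**Figure D3:**
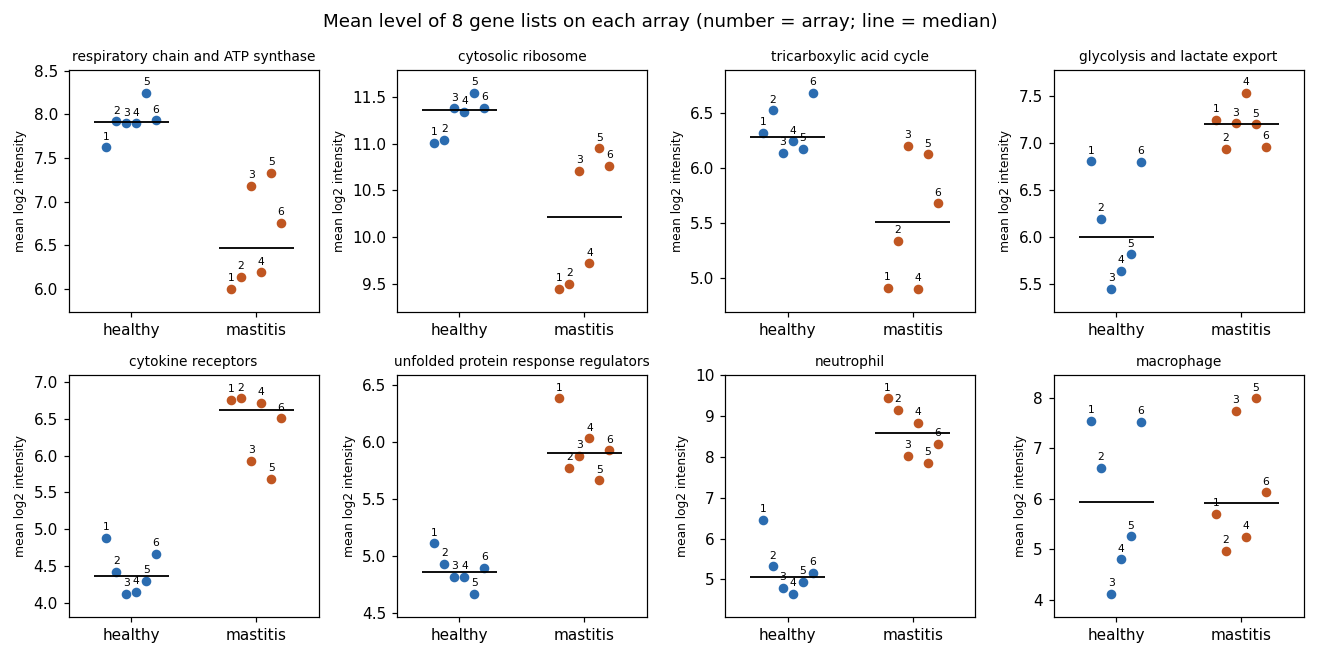
Mean log2 intensity of 8 gene lists on each of the 6 healthy (blue) and 6 mastitis (orange) arrays, numbered, with the group median as a line. The groups are separate for the respiratory chain, ribosome, glycolysis, cytokine receptor, unfolded protein response and neutrophil lists, and they overlap for the tricarboxylic acid cycle and macrophage lists.

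The mastitis arrays were not alike in these falls. The respiratory chain level was 6.00, 6.13 and 6.19 on mastitis 1, 2 and 4, and 7.18, 7.33 and 6.76 on mastitis 3, 5 and 6. The ribosome level was 9.45, 9.50 and 9.72 on the first 3 of these and 10.71, 10.95 and 10.77 on the others. The neutrophil marker level ran in the opposite order to the respiratory chain level over all 6 mastitis arrays, being highest on mastitis 1 (9.44) and lowest on mastitis 5 (7.86). The macrophage level was 5.70, 4.97 and 5.24 on mastitis 1, 2 and 4, and 7.74, 7.98 and 6.13 on mastitis 3, 5 and 6. All 4 lists come from the same arrays and share their normalisation.

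**Figure D4:**
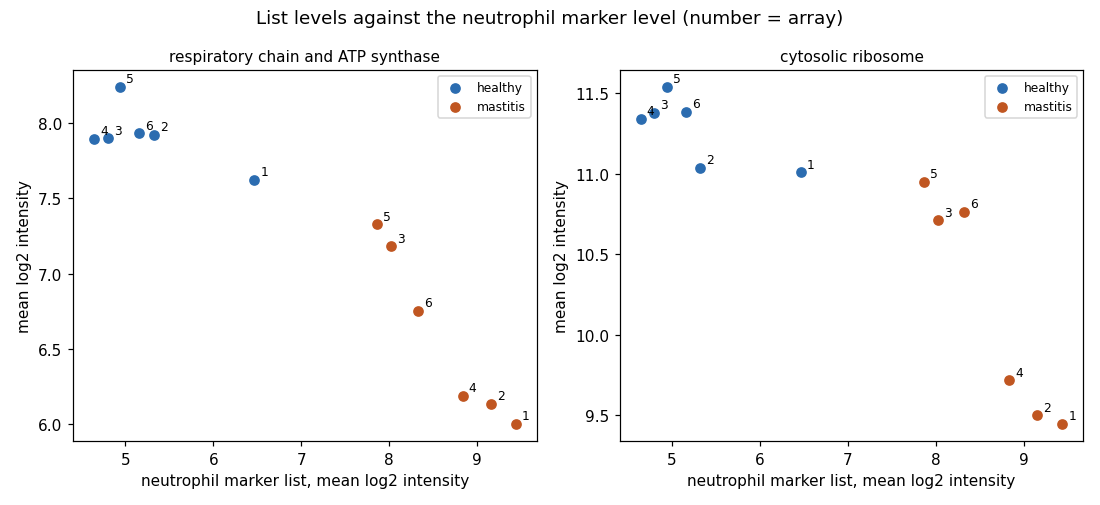
Mean log2 intensity of the respiratory chain list (left) and the cytosolic ribosome list (right) against that of the 11 neutrophil markers, 1 point per array with its number, healthy in blue and mastitis in orange. Mastitis 1, 2 and 4 combine the highest neutrophil levels with the lowest levels of both lists.

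Of 38 translation factors and tRNA synthetases 5 rose and 8 fell, against 11.3% and 15.8% of all genes. The elongation factor 1 subunits EEF1D, EEF1G and EEF1B2 fell by 2.09, 1.51 and 1.31, and EEF1A1 and EEF2 differed by -0.33 and -0.60 and were not called. EEF1A1 was called lower, at -1.47, on the mean of its 2 probe sets, and EEF2, at -1.01, with quantile normalisation. Of 15 cytosolic synthetases, SARS1 and TARS1 rose and HARS1 fell, by 0.99, a call lost without healthy 1, 2, 4 or 5 or mastitis 1, 2, 4 or 6. SARS1, which charges serine tRNA, went from 6.80 to 8.14 (median 7.37) to 9.88 to 10.94 (median 10.59), a rise of 3.00 ± 0.31 (adjusted p = 2.47e-05). TARS1, for threonine, rose by 2.60 ± 0.35 from 7.25 to 8.31 to 9.56 to 11.14. The other 12 differed by -0.70 to 0.79. The number of falling members was 5 without healthy 2, 4 or 5 or mastitis 2 or 4, and 3 with the GAPDH covariate, where EEF1G, EEF1B2 and HARS1 were not called. EEF1B2 and HARS1 also lost the call with hybridisation scaling and with array weights.

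Genes of protein entry into the endoplasmic reticulum fell in part. Of 14 measured subunits of the translocon, its associated complex and the signal peptidase, 5 fell and 0 rose. The shares over all genes were 15.8% and 11.3%. SSR4, a subunit of the translocon-associated complex, went from 10.38 to 11.54 (median 11.22) to 7.50 to 9.42 (median 8.58) and fell by 2.49 ± 0.39. SPCS1, SEC11C, SEC61B and SSR3 fell by 1.98, 1.77, 1.58 and 1.58, and SEC11C lost the call without healthy 3 or mastitis 1, 2 or 4. SEC11C, SEC61B and SSR3 were not called with the GAPDH covariate, and SEC11C was not with array weights. None of 13 chaperones and disulfide isomerases fell, and the median of these 13 was 0.70: HSPA5, HSP90B1, CALR and PDIA4 differed by 0.94, 1.01, 1.12 and 0.93 and were not called, but all 4 were called higher with array weights. DNAJC12, a co-chaperone of the same list of 32 that is not among these 13, went from 8.19 to 12.01 (median 11.46) to 2.44 to 5.14 (median 3.06) and fell by 7.51 ± 0.93. DNAJB9, the 1 called higher, lost the call without healthy 1, 3, 4 or 5 or mastitis 1 to 4. Of 7 COPI coat genes, which carry vesicles back from the Golgi, 5 fell, by 0.68 to 1.11. Of the whole list of 24 coat and Golgi trafficking genes 10 fell and 1 rose, against the same shares. The rising gene was SAR1A, by 1.56 ± 0.24. The falling count was 6 without mastitis 1 or 4, 0 with the GAPDH covariate and 1 with hybridisation scaling.

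Regulators of stress responses rose in part. Of 9 measured regulators of the unfolded protein and integrated stress response, 5 rose and 0 fell, 55.6% against 11.3%. They were the transcription factors ATF4 (1.33), DDIT3 (2.91) and ATF3 (2.09), the phosphatase subunit PPP1R15A (1.74), which ends the translation block, and HERPUD1 (1.43), which acts in degradation of misfolded proteins. DDIT3 went from 4.04 to 4.61 (median 4.48) to 6.64 to 8.92 (median 6.77), a rise of 2.91 ± 0.40 (adjusted p = 0.000169). ATF3 went from 6.03 to 7.71 to 8.33 to 9.29, and neither gene's groups overlapped. EIF2AK3 and TRIB3 differed by 0.31 and 0.19 and were not called, and the remaining members differed by -0.14 and -0.21 and were not called. With the GAPDH covariate 3 were called, and ATF3 and ATF4 were not; ATF4 was not called with quantile normalisation either.

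Degradation routes differed from one another. The constitutive proteasome fell in part, with 8 of 26 members lower and 1 higher, against 15.8% and 11.3% of all genes. PSMB5, the subunit with chymotrypsin-like activity, fell by 2.24 ± 0.34, from 6.94 to 8.54 to 4.86 to 6.35. PSMB6 fell by 1.41 ± 0.28. Both are catalytic subunits that immune cells replace with inducible ones. PSMB4, the member called higher, differed by 0.46 and lost the call without healthy 2 to 5 or mastitis 3 to 5. PSMB4 and PSMB6 were not called with the GAPDH covariate or with hybridisation scaling, where 1 and 2 members were called lower.

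Of 15 ubiquitin enzymes of immune signalling 10 rose and 0 fell, against 11.3% and 15.8% of all genes. TRIM25, a ligase that activates the RNA sensor RIG-I, went from 4.64 to 6.37 (median 5.99) to 7.54 to 9.63 (median 8.29), a rise of 2.62 ± 0.43. CYLD, a deubiquitinase that restrains NF-kappaB, rose by 2.47 ± 0.35 from 4.61 to 5.80 to 7.09 to 8.11. The other 8 were USP18, PELI1, TRAF1, BIRC3, TRAF3, OTULIN, RBCK1 and TRAF6, with rises of 0.76 to 2.39. OTULIN lost the call without healthy 2 to 5 or mastitis 1, 3, 5 or 6. Activators and brakes of the pathway thus stood side by side in this list. With the GAPDH covariate 5 members were called, and BIRC3, TRAF3, OTULIN, RBCK1 and TRAF6 were not. OTULIN was not called with hybridisation scaling, nor RBCK1 in a fit of the 12 arrays only.

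In the lysosome 6 of 36 genes rose and 2 fell, against 11.3% and 15.8% of all genes. The protease CTSZ went from 7.47 to 10.75 (median 9.24) to 10.98 to 12.57 (median 12.13), a rise of 2.60 ± 0.69, and the membrane protein LAMP1 rose by 2.16 ± 0.49. The proton pump split, with ATP6V0B, ATP6V1C1 and ATP6V1E1 higher by 2.06, 1.88 and 1.47 and ATP6V1F lower, by 1.22 ± 0.24. ATP6V1C1 differed by 0.63 on the mean of its 2 probe sets and was not called there, and ATP6V1F was not called with hybridisation scaling. The cholesterol carriers split as well: NPC1, in the membrane, rose by 1.91 and NPC2, its soluble partner, fell by 1.48 ± 0.33. CTSD differed by 2.48 and CTSA by 1.70, and neither was called, although CTSD was with dim probe sets left out. The rising count was 10 without healthy 6, and 0 with the GAPDH covariate, where CTSZ, LAMP1, NPC2 and the other genes named as higher lost the call. NPC2 lost it with hybridisation scaling too.

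Cytokine receptors showed the highest share of rising genes of the 41 pathway lists shown here. Of 19 measured 14 rose and 0 fell, 73.7% against 11.3%, with a median of 2.24. The groups did not overlap for 14 of the 19, against 16.6% of all genes. The count of rising genes was 14 under each of the 12 fits that left out 1 array and 13 with the GAPDH covariate. IL1RAP, the signalling partner of the interleukin-1 receptor, went from 4.28 to 7.56 (median 5.24) to 8.78 to 11.01 (median 9.60), a rise of 4.19 ± 0.61 (adjusted p = 0.000271). IFNAR2, a chain of the type I interferon receptor, went from 4.82 to 6.81 (median 5.64) to 8.52 to 10.51 (median 8.98), a rise of 3.45 ± 0.49 (adjusted p = 0.000218). IFNAR1, its partner chain, was at background on all 6 healthy arrays and was called at least 1.44-fold higher.

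The list holds receptors of opposing action. IL1R2, the decoy that binds interleukin-1 without signalling, rose by 3.41, while IL1R1, the signalling chain, differed by -0.27 and was not called. Both chains of the interleukin-10 receptor rose, IL10RA by 3.11 and IL10RB by 3.12, as did the tumour necrosis factor receptors TNFRSF1A (3.24) and TNFRSF1B (2.05). IL6R, IL4R, IL13RA1, IL2RG and IFNGR2 rose by 3.03, 2.24, 3.20, 1.80 and 1.90, and IL2RG lost the call with the GAPDH covariate. IL18R1 was at background in both groups, and IL21R, CSF2RB and OSMR differed by -0.31 to 0.14. Many of these receptors are expressed by neutrophils as well as by other leukocytes. None of the 15 T cell markers was called, and their mean level was 2.88 to 5.08 on healthy and 2.66 to 4.68 on mastitis arrays.

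Downstream of these receptors, 9 of 16 JAK, STAT and SOCS genes rose and 1 fell, against 11.3% and 15.8% of all genes. STAT2 went from 2.92 to 3.83 (median 3.42) to 5.14 to 6.48 (median 6.04), a rise of 2.50 ± 0.30 (adjusted p = 6.31e-05). STAT6, which acts for interleukins 4 and 13, rose by 2.34 ± 0.46, from 2.85 to 4.65 to 5.34 to 7.30. STAT3, an effector of interleukins 6 and 10, rose by 2.24. The phosphatases PTPN1, PTPN2 and PTPN6, which switch the pathway off, rose by 1.79, 1.28 and 2.29. JAK1, STAT5B and STAT4 differed by 0.00, 0.07 and -0.66 and were not called. SOCS5, the member called lower at -0.92, lost the call without any 1 of 10 arrays, all but healthy 1 and 6. STAT6, PTPN1, PTPN2 and PTPN6 lost the call with the GAPDH covariate, and 4 members were called higher there.

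In the list on phosphoinositide, insulin and mTOR signalling 5 of 21 genes rose and 1 fell, against 11.3% and 15.8% of all genes. DDIT4, a stress-induced inhibitor of mTOR, went from 6.60 to 8.86 (median 7.28) to 10.82 to 12.59 (median 12.08), a rise of 4.46 ± 0.51 (adjusted p = 4.87e-05). RHEB, the GTPase that activates mTOR, went from 6.95 to 7.82 (median 7.72) to 5.07 to 6.16 (median 5.73) and fell by 1.82 ± 0.24 (adjusted p = 0.000133). TSC1 and PRKAA1, further restraints on mTOR, rose by 1.44 and 1.15, and RPTOR and RPS6KB1 differed by -0.17 and -0.48 and were not called. PRKAA1 lost the call with the GAPDH covariate and in a fit of the 12 arrays only, and 2 members were called higher with that covariate.

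Of 18 MAP kinase genes 7 rose and 1 fell, against 11.3% and 15.8% of all genes. MKNK1, which phosphorylates the cap-binding factor eIF4E, went from 4.45 to 6.60 (median 4.89) to 8.14 to 9.74 (median 8.68), a rise of 3.60 ± 0.52. DUSP1, the phosphatase that ends p38 signalling, rose by 2.91 ± 0.64, from 7.68 to 10.49 to 11.11 to 12.14. The p38 kinases diverged: MAPK14 rose by 1.32 and MAPK13, an isoform of epithelia, fell by 3.72 ± 0.77, from 3.72 to 8.11 to 2.56 to 3.21. DUSP1 and MAPK13 lost the call with the GAPDH covariate.

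**Figure D5:**
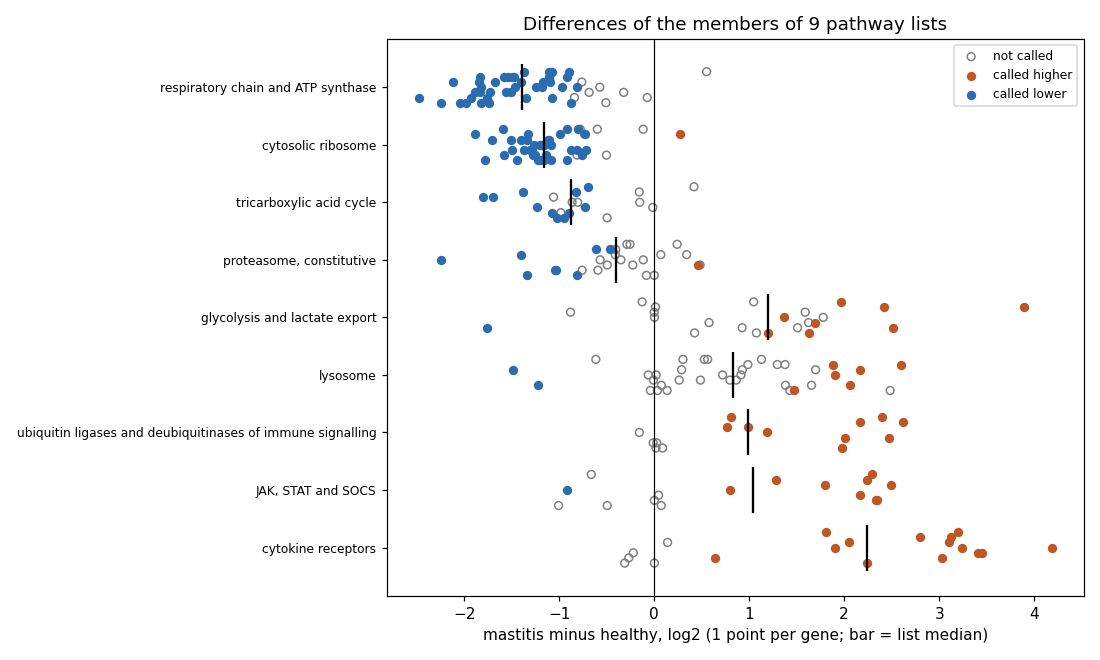
Difference between mastitis and healthy samples (log2) for each measured member of 9 pathway lists, 1 point per gene, filled where called, with the list median as a bar. The respiratory chain median is -1.39, the ribosome median -1.16 and the cytokine receptor median 2.24.

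Among 23 myeloid and inflammatory transcription factors 10 rose and 0 fell, against 11.3% and 15.8% of all genes. CEBPB, a driver of emergency granulopoiesis, went from 3.17 to 4.61 (median 3.55) to 6.65 to 9.22 (median 7.81), a rise of 4.05 ± 0.51 (adjusted p = 9.71e-05). BHLHE40, a repressor linked to cytokine production, rose by 2.68 ± 0.36, from 5.92 to 8.03 to 9.06 to 10.62. NFIL3, BATF, JUNB, BCL3, KLF4, CEBPD, MAFF and MAX rose by 0.86 to 2.34. CEBPD lost the call without healthy 2, 5 or 6 or mastitis 2, 3 or 6, and MAFF without healthy 2 to 5 or mastitis 2 to 4. With the GAPDH covariate 3 of the 10 were called, and NFIL3, BATF, JUNB, KLF4, CEBPD, MAFF and MAX were not. CEBPD was not called with hybridisation scaling or quantile normalisation either, nor MAFF and MAX in a fit of the 12 arrays only. CEBPA and IRF8 differed by 0.09 and 0.04. In the circadian list, 2 of 5 genes fell: HLF by 4.81 ± 0.88, from 4.84 to 9.01 to 2.56 to 3.09, and the repressor CRY1 by 1.37 ± 0.26. The time of day of sampling is not given in the sources used here.

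Of 7 inflammasome genes 3 rose, against 11.3% of all genes. CASP4, the caspase that senses cytosolic lipopolysaccharide, rose by 3.27 ± 0.44 from 5.10 to 6.46 to 8.02 to 9.59. CASP1 rose by 2.24 and IL18 by 2.39 ± 0.60. IL1B and PYCARD differed by 2.33 and 1.95 and were not called, although PYCARD was with dim probe sets left out. The remaining members differed by 0.01 and 0.94 and were not called. Of 7 cytosolic sensors and adaptors 3 rose, against the same share. TANK, an adaptor of the interferon kinases, went from 4.25 to 5.17 (median 4.84) to 6.44 to 8.85 (median 7.80), a rise of 2.90 ± 0.32 (adjusted p = 4.22e-05), DHX58 rose by 2.16 ± 0.35 and RIPK1 by 1.56. MAVS and CARD9 differed by 0.00. IL18 lost the call with the GAPDH covariate.

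In the list on lipid and purine mediators 4 of 14 genes rose and 1 fell, against 11.3% and 15.8% of all genes. PTAFR, the receptor of platelet-activating factor, went from 4.07 to 7.27 (median 5.42) to 9.24 to 11.22 (median 9.51), a rise of 4.29 ± 0.69. P2RY13, an ADP receptor, rose by 3.92 ± 0.47 from 2.43 to 3.82 to 4.61 to 8.00. LPCAT2, an enzyme that makes platelet-activating factor, was at background on all 6 healthy arrays and at 2.71 to 6.27 on mastitis arrays, at least 3.39-fold higher. NT5E, which forms adenosine outside the cell, fell by 2.33 ± 0.65, from 3.54 to 6.79 to 2.43 to 2.93, and lost the call with the GAPDH covariate. UGCG, the first enzyme of glycosphingolipid synthesis, rose by 2.82 ± 0.36 and CHPT1, which makes phosphatidylcholine, fell by 2.18 ± 0.39. Their list of 21 had 5 higher and 3 lower, against 11.3% and 15.8% of all genes. The 5 became 3 without healthy 3, 4 or 5 or mastitis 2, and 8 without healthy 6.

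Genes of cell death and the BCL2 family rose in 5 of 14 cases, against 11.3% of all genes. FAS, the death receptor, went from 3.54 to 4.08 (median 3.62) to 5.92 to 8.43 (median 7.20), a rise of 3.45 ± 0.37 (adjusted p = 3.25e-05). MCL1, BCL2A1 and BCL2L1, which hold back the mitochondrial death route, rose by 2.34 ± 0.39, 1.96 and 1.13, and FADD, the adaptor of FAS, by 0.55. BCL2A1 lost the call without healthy 3 or mastitis 2, and with the GAPDH covariate. BAX, BAK1 and CASP9 differed by 1.07, 0.25 and 0.02 and were not called. The cell cycle list gave 2 of 26 higher and 0 lower, fewer than the background share. Both were genes of arrest or stress rather than division: CDKN1A rose by 1.96 ± 0.55 and PLK3 by 1.64 ± 0.33, and CDKN1A lost the call with the GAPDH covariate.

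Granule and membrane fusion genes rose in 8 of 20 cases and fell in 3, against 11.3% and 15.8% of all genes. STX4, a plasma membrane syntaxin, went from 3.43 to 4.38 (median 3.97) to 5.67 to 7.33 (median 6.23), a rise of 2.49 ± 0.41, and RAB27A, which docks granules, rose by 2.03. RAB18, a GTPase of lipid droplets and the endoplasmic reticulum, fell by 2.55 ± 0.48, from 6.92 to 9.94 to 5.81 to 6.45, and VAMP3 and VAMP8 by 1.31 and 1.12. With the GAPDH covariate 1 member was called, and RAB18, RAB27A, VAMP3 and VAMP8 were not. VAMP3 and VAMP8 were not called with hybridisation scaling.

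Of 19 chromatin regulators 4 rose and 3 fell, against 11.3% and 15.8% of all genes. The falling count was near that share. EZH2, the methyltransferase of Polycomb complex 2, went from 4.49 to 5.73 (median 4.94) to 6.49 to 8.78 (median 7.83), a rise of 2.83 ± 0.41 (adjusted p = 0.000274). It is best known from dividing cells. The cell cycle list gave 2 of 26 genes higher, and a link between that list and EZH2 was not tested. SMARCA2, a chromatin-remodelling ATPase, fell by 2.40 ± 0.38, from 6.44 to 8.01 to 3.95 to 5.80. SETD7, a lysine methyltransferase, fell by 2.53 ± 0.56. HDAC1, CREBBP and SIRT1 rose by 1.75, 1.66 and 1.41, and HDAC3 fell by 0.80. SIRT1 lost the call without healthy 2 to 5 or mastitis 1, 2, 4 or 6. HDAC1, CREBBP, SIRT1 and SETD7 lost the call with the GAPDH covariate, which left 1 rising and 2 falling genes. SIRT1 lost it also with array weights and quantile normalisation, and HDAC3 with hybridisation scaling.

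Splicing gave 5 of 28 higher and 2 lower, against 11.3% and 15.8% of all genes. The large proteins SF3B1 and HNRNPU rose by 1.83 ± 0.29 and 1.15 ± 0.26, and the small core proteins SNRPG and SNRPD3 fell by 1.17 ± 0.23 and 0.77 ± 0.22. SNRPD3 lost the call without healthy 5 or mastitis 1 and with the GAPDH covariate, and both small proteins lost it with hybridisation scaling. The rising count was 3 without healthy 2 to 5 or mastitis 4, and 8 without healthy 6.

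Among growth factors 4 of 18 genes rose and 1 fell, against 11.3% and 15.8% of all genes. The fall was lost without any 1 of 9 arrays, healthy 3 to 5 and mastitis 1 to 6. VEGFA, the vascular growth factor, went from 5.54 to 8.08 (median 6.00) to 7.84 to 10.10 (median 9.58), a rise of 3.12 ± 0.51, and the groups overlapped through 1 healthy array at 8.08. AREG, a ligand of the epidermal growth factor receptor, rose by 2.99, a call lost without healthy 3, 4 or 5 or mastitis 2. In the list on coagulation and fibrinolysis 5 of 19 rose and 0 fell, against the same shares. Beside THBD these were PLAU (2.85 ± 0.72) and its receptor PLAUR (2.48), which activate plasminogen, and the clotting factors F5 (2.61) and F3 (1.65). The count was 3 without healthy 4 or 5 or mastitis 2, 3 or 4, the same arrays without which F3 lost the call, and PLAUR lost it without any 1 of 9 arrays, all but healthy 1 and mastitis 1 and 5. PLAU, PLAUR, F3 and AREG lost the call with the GAPDH covariate, and F3 and PLAUR in a fit of the 12 arrays only, PLAUR also with array weights and with quantile normalisation.

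Triglyceride synthesis held an exception to the fall of milk fat genes. DGAT2, which adds the last acyl chain, was near background on healthy arrays (2.46 to 3.27, median 2.79) and at 4.97 to 7.67 (median 6.40) on mastitis arrays, a rise of 3.54 ± 0.37 (adjusted p = 2.71e-05). DGAT1, the isoform known for milk fat content in cattle, rose by 1.02 ± 0.27, with healthy values of 2.54 to 3.74 and mastitis values of 3.37 to 4.70 that overlapped, and it lost the call with the GAPDH covariate. Of the 23 genes of that list 8 fell and 2 rose, against 15.8% and 11.3% of all genes.

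In metal and redox metabolism the counts were near the shares over all genes, 11.3% higher and 15.8% lower. Of 21 thiol redox genes 3 rose and 4 fell. ATOX1, the copper chaperone, lay at 9.89 or above (median 10.30) on the healthy arrays and between 6.46 and 9.51 (median 7.02) on the mastitis arrays, and it fell by 2.76 ± 0.48, 1 of 2 calls among 15 zinc and copper genes. NFE2L2, the regulator of the antioxidant response, rose by 2.20 ± 0.48, from 7.30 to 8.98 to 9.21 to 11.38. The mitochondrial peroxiredoxin PRDX3 fell by 1.81 ± 0.34, from 6.99 to 7.83 to 4.54 to 6.82, and PRDX5 rose by 1.78 ± 0.46. PRDX3 was not called on the mean of its 2 probe sets, and NFE2L2 and PRDX5 lost the call with the GAPDH covariate. In calcium signalling 3 of 14 genes rose and 1 fell. ITPR1, a release channel, rose by 2.85 ± 0.63 and ORAI1, the entry channel, fell by 1.40 ± 0.37. Both lost the call with the GAPDH covariate. In tryptophan and arginine metabolism 6 of 17 rose, above the 11.3% of all genes, and 2 fell, against 15.8%. IDO1, which degrades tryptophan, rose by 2.30 ± 0.52 (not called with the GAPDH covariate). AMD1, an enzyme of polyamine synthesis, fell by 1.37 ± 0.29. The falling count was 1 without healthy 2, 4, 5 or 6 or mastitis 2 to 6.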

How the data were processed

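RNA from 18 milk cell samples, 6 of cows with mastitis, 6 of healthy cows and 6 of cows with endometritis, was hybridised to Affymetrix arrays of the bovine genome. Per the labels' protocols, RNA that passed an integrity threshold was labelled with a kit for in vitro transcription from the 3′ end. The authors deposited 1 normalised value per probe set and array, here read as log2 intensity. RMA, GCRMA and limma appear in the submitters' processing notes without roles or versions, and neither the log base nor the method behind the values is stated. They lie between 2.43 and 14.2, and their median, 2.55, was taken as background.

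Differences between mastitis and healthy samples were tested two-sided with lmFit and eBayes of limma 3.58.1 (R 4.3.3), in 1 model with a term for each of 3 groups over all 18 arrays (15 residual and 0.561 prior degrees of freedom). The Benjamini-Hochberg adjustment ran over 24016 probe sets with no filter on dim ones, and an adjusted p-value under 0.05 was a call. By the platform annotation 13292 probe sets have 1 symbol, 86 have several and 10638 have none. Identifiers were checked against the names of assembly ARS-UCD2.0: 0 symbols were updated and 29 identifiers were absent. Of several probe sets of a gene, the brightest on average across the 18 arrays stands for it. A gene at or under background on all 6 arrays of a group has a fold given as a lower bound against that background. The number of arrays limits the precision, and no genome positions or sequences are given, because the sources used here name no genome build.

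The 42 pathway and 11 marker lists held 1316 entries, 988 of them measured; 1 pathway list is not reported here, which leaves 41. The comparison and the lists were chosen with earlier results of these data known. Genes were named by a rule: in each list up to 2 called members with the largest rise and up to 2 with the largest fall (the 2 smallest p-values where none was called), and across the array the 12 largest moderated t statistics in each direction among called genes at least 2-fold apart, outside the neutrophil, secretory and milk fat lists. By this rule 115 of the 219 genes in the text were named, and the other 104 are further list members named after their values were seen. Control measures were compared by an exact permutation test over all 924 arrangements of 6 and 6 arrays. The fit was checked on simulated data. Alternatives covered the samples fitted, dim probe sets, the prior, array weights, normalisation, the GAPDH difference as a covariate, the number in the titles, each array left out, the threshold and the mean of probe sets; the scaling to hybridisation controls combined with the filter on dim probe sets was added after seeing the data.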

Additional observations from a re-analysis of the deposited data

Results flagged for a closer look

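In each group of 6 arrays, the highest or lowest value of each gene named in the text was compared with its nearest neighbour, as a share of the range, against Dixon's critical value for 6 samples. In 26 of 438 gene and group pairs 1 array stood apart. Chance gives about 5 in 100 for normally distributed values without a floor. The values here have a floor at 2.43. For genes near it, such as IL18R1 with a range of 0.02 on the healthy arrays, that rate need not hold.

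In mastitis samples all 9 of these values were high. OSMR, HLF and EPCAM, which are among them, lay near the floor, which limits how far a value can stand low. IL1R1 was 5.90 on mastitis 2 against at most 3.86 on the others, and the gene was not called. DNAJC12 was 5.14 on mastitis 1 (next 3.28), PTAFR 11.22 (next 9.84) and TRAF6 5.75 (next 5.12). PGK1 was 11.38 (next 10.61), PRDX5 11.58 (next 10.04) and OSMR 2.97 (next 2.64) on mastitis 4. EPCAM was 3.11 on mastitis 3 and HLF 3.09 on mastitis 5.

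In healthy samples VEGFA was 8.08 on healthy 1 (next 6.14), where P2RY13 was 3.82 (next 2.62), ADAM19 3.15 and CEBPA 2.66, and CKS1B was low at 3.98 against 4.71 or more. On healthy 3 MAPK14 was low at 3.60 (next 4.32) and FCGR3A at 2.43. On healthy 4 MAVS was 3.65 and IL1R2 2.81, and TRAF3 was low at 2.84. OSMR was 4.14 (next 2.71), PSMB6 8.64 (next 8.12) and MAX 3.34 on healthy 5. IL21R was 4.04 (next 3.19), GNLY 3.50, CARD9 2.82 and IL18R1 2.45 on healthy 6.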

How the results depend on the processing

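Under 27 alternative settings no called gene named above changed sign except LDHA, which differed by -0.041 on the mean of its 3 probe sets. With scaling to hybridisation controls 947 probe sets and 619 genes were called lower, and with dim probe sets also left out, a setting chosen after seeing the data, 1046 and 684. The GAPDH covariate gave 856 probe sets higher and 572 lower, and 376 and 429 genes. Arrays with title numbers up to 120 gave 78 and 41 probe sets and 36 and 28 genes, and those above 120 gave 1459 and 888 probe sets and 460 and 691 genes. The endometritis arrays on each side of 120 were in these fits too, so the counts rest on unlike numbers of arrays. An adjusted p under 0.01 gave 1455 and 1196 probe sets and 634 and 826 genes, and a further 2-fold minimum at 0.05 gave 1614 and 1361 probe sets and 907 lower genes. The numbers of genes higher and lower stayed within 1.5 times the main counts of 1035 and 1448 under the other settings, and leaving out each of 12 arrays gave 850 to 1083 and 1173 to 1495. Of the 187 called genes named, 21 lost the call when 1 array was left out. Of 32 lists with a median beyond 0.1 in size, 6 had a median of the other sign under at least 1 setting, among them translation factors with hybridisation scaling (0.008), fatty acid oxidation with the same scaling (0.032) and macrophage markers with the GAPDH covariate (-0.512). No paired analysis was possible because the labels give no replicate numbers that pair samples. The cause of these changes was not tested.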

Other observations

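Structural genes of epithelium, the keratins, claudins and adhesion proteins that hold the cell layer together, were lower in mastitis. Of 13 measured 8 fell and 0 rose, against 15.8% and 11.3% of all genes. Their mean level ran from 3.71 to 5.03 on healthy and from 2.61 to 2.92 on mastitis arrays. EPCAM, an adhesion protein of epithelial cells, went from 5.88 to 7.78 (median 6.47) to 2.52 to 3.11 (median 2.67), a fall of 3.87 ± 0.55 (SE, n = 6 each; limma, adjusted p = 0.00022). KRT7, a keratin of simple epithelia, fell by 2.18 ± 0.38, from 3.94 to 5.57 to 2.43 to 2.99. Both were near background on the mastitis arrays, and the groups did not overlap.

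Autophagy, the route by which cells digest their own parts, gave 3 of 19 genes higher and 2 lower, near the shares over all genes. The lower count was 1 without any 1 of 9 arrays, healthy 1, 2, 4 and 5 and mastitis 1, 2, 3, 4 and 6. OPTN, an adaptor that delivers bacteria and damaged mitochondria to that route, went from 4.23 to 5.13 (median 4.88) to 6.16 to 7.26 (median 6.55), a rise of 1.81 ± 0.20 (adjusted p = 3.81e-05), and all 3 of its probe sets were called higher. VMP1, a membrane protein of early autophagosome formation, rose by 3.25 ± 0.78 and WIPI1, which acts at a like stage, fell by 2.15 ± 0.55. VMP1 and WIPI1 lost the call with the GAPDH covariate.

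In the nuclear receptor list 4 of 18 genes rose and 1 fell, against 11.3% and 15.8% of all genes. The fall was lost without healthy 1, 2 or 3 or mastitis 1, 3, 4, 5 or 6. NCOR1, a co-repressor of these receptors, went from 3.38 to 4.58 (median 4.01) to 5.16 to 6.15 (median 5.76), a rise of 1.77 ± 0.22 (adjusted p = 0.000102). In the iron and haem list 2 of 17 rose and 3 fell, near the shares over all genes of 11.3% and 15.8%. The rising count was 0 without healthy 3, 4 or 5 or mastitis 1, 3, 4 or 5, 1 without mastitis 2 or 6, and 0 with the GAPDH covariate. NCOA4, the receptor that sends ferritin for degradation, fell by 1.60 ± 0.42, from 9.12 to 10.74 to 8.13 to 8.72. In the list of natural killer and cytotoxic cells 2 of 10 genes were called higher, against 11.3% of all genes. The list median was 0.04, and the count was 1 without any 1 of healthy 1 to 6 or mastitis 2, 5 or 6. GNLY, a cytolytic granule protein, ran from 2.44 to 3.50 (median 2.68) on healthy and from 2.55 to 8.43 (median 6.88) on mastitis arrays, a rise of 3.61 ± 0.78, and the groups overlapped. NCOA4 and GNLY lost the call with the GAPDH covariate.

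Of the 10724 probe sets without a single gene symbol, 1025 were called higher and 623 lower, with 270 and 107 of these at least 4-fold apart, and they stay without a name here. A further 150 named genes were more than 2-fold higher and 87 more than 2-fold lower without being called.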
